A study of Mus musculus with 11 samples.

Results

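Long non-coding features were taken as all unique features of the deposited table whose end minus start was at least 5000 bp. There were 1539 of them among 36097 listed features, or 4.26%. The table came from retinas of mice at postnatal day 21, in 5 wild-type and 6 Nrl knock-out libraries of RNA depleted of polyadenylated transcripts, read as 50 bp stranded single-end reads. Strain, sex and the part of Nrl removed are not given in the labels, nor whether a library came from 1 animal or several, so p-values measure the spread between libraries, which may be technical. The shortest features taken were 5001, 5004 and 5012 bp long, and the longest ones left out were 4996, 4996 and 4995 bp. These 6 features held means of 172 to 351 normalised counts over all libraries.

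Nrl encodes a MAF-family transcription factor that rod photoreceptors need to form, and photoreceptors made without it are known to resemble cones. RNA without a poly(A) tail includes ribosomal RNA, nascent and incompletely processed transcripts, circular RNA and a class of long non-coding RNAs. Long non-coding RNAs are often transcribed from the strand opposite to a gene, divergently from a gene's promoter, or from gene-poor intervals. Some, such as the imprinted Airn, Kcnq1ot1 and Meg3, act on neighbouring genes in cis.

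Annotated start sites show where a long feature may begin. Of the 1539 features, 113 had their 5′ end within 1000 bp of the start of a RefSeq gene on the same strand, which gave 137 promoter windows from 250 bases before to 50 after a start (RefSeq, GRCm38.p6, the same assembly as mm10). Shown here are the windows of RefSeq long non-coding genes whose window contains the feature's own 5′ end: those of the 2 largest falls, the 2 largest rises and the most abundant of these features. They are read 5′ to 3′, with the letters TAATCC, the site bound by the photoreceptor homeobox factors CRX and OTX2, in capitals on either strand (GGATTA is its reverse complement). Gm32681 lies at chr9:51054943-51055242 on the plus strand, 5 bp from the 5′ end of MSTRG.91313, and Gm2233 at chr13:43948626-43948925 on the plus strand, 18 bp from that of MSTRG.24050. Gm29904 lies at chr15:61292815-61293114 on the plus strand (33 bp, MSTRG.31853), Gm31615 at chr17:88388609-88388908 on the minus strand (101 bp, MSTRG.40948) and Gm41263 at chr15:7442051-7442350 on the plus strand (147 bp, MSTRG.30539).
Gm32681: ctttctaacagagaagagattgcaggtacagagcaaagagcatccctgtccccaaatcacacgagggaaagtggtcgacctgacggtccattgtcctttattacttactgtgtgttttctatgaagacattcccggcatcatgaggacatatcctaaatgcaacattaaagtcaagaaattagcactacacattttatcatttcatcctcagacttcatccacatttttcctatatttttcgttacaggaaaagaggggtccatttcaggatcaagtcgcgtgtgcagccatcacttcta
Gm2233: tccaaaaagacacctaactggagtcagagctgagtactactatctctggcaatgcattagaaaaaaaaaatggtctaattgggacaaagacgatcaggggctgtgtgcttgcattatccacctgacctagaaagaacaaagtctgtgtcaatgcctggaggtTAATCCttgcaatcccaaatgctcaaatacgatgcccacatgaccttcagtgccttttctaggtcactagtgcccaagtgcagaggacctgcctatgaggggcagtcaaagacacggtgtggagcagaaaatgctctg
Gm29904: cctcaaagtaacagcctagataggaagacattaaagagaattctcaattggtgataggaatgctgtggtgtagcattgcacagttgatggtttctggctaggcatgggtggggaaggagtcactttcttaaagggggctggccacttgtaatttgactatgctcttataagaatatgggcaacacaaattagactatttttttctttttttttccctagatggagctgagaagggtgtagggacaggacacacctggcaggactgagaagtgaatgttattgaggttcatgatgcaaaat
Gm31615: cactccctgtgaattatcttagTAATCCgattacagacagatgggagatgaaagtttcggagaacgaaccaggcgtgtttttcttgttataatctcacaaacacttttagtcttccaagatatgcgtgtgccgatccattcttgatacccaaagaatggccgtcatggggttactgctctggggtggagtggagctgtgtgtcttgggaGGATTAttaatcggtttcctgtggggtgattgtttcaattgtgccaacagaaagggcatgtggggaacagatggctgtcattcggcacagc
Gm41263: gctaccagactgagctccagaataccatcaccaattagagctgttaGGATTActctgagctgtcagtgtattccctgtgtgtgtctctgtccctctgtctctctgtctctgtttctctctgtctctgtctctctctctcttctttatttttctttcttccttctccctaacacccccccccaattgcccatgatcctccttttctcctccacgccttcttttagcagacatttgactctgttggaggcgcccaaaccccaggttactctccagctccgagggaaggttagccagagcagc

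The first pair belongs to features that were almost lost in the knock-out. MSTRG.91313 held 410, 197, 195, 222 and 201 normalised counts in the wild-type libraries and 1.52 to 11.4 in the 6 knock-out libraries (log2 difference -4.77, SE 0.33, limma adjusted p = 5.14e-12). MSTRG.24050 held 752 to 1306 in wild-type and 31.9 to 73.2 in knock-out (log2 difference -4.08, SE 0.20, limma adjusted p = 1.15e-14). The second pair rose: MSTRG.31853 was at 0.967 to 4.03 in wild-type and 16.7 to 33.3 in knock-out, and MSTRG.40948 at 601 to 689 and 3276 to 4046. No library of one genotype reached the range of the other in any of these 4 features, which were chosen for their large called differences. The groups did not overlap in 35.4% of tested long features and 20.2% of all tested features. TAATCC was found in 21 of the 137 windows (15.3%), in 8.23% of the windows of all RefSeq long non-coding genes and in 7.06% of all 32851 windows. By call, it was in 9 of 30 windows of features lower in knock-out, 3 of 25 of those higher and 7 of 65 of those not called. The core TGCTGAC bound by MAF-family factors such as NRL was in 9 windows (6.57%), against 4.67% of all windows. Both strands were searched, the 2 motifs cannot overlap each other, and some features have several windows, so the shares describe letters only.

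The labels were checked at Nrl. MSTRG.28375, a shorter feature inside the Nrl gene on the opposite strand (chr14:55521461-55522460), held 33.3 to 55.5 normalised counts in wild-type and 0 in 5 of the 6 knock-out libraries (0.758 in the other). The listed features held 3238184 to 4876429 reads per library. Among retina-enriched non-coding genes, features on the strand of Otx2os1 summed to 6041 to 10111 normalised counts in wild-type and 8513 to 17927 in knock-out, and those of Sox2ot to 139 to 304 and 122 to 294. Vax2os had 1 shorter feature, at 43.5 to 75.7 in wild-type and 0.830 to 6.06 in knock-out. No listed feature lay on the strand of Six3os1, Rncr4 or Miat. Libraries of both genotypes stood apart. Wild-type 1 had the fewest reads and 3713 features at 0, against 1040 to 2090 in the other 10 libraries. Knock-out 2 held 23.2% of its listed reads in 2 ribosomal features described next, against 6.39% to 10.4% in the other knock-out libraries. Without wild-type 1 the test called 721 long features, and without knock-out 2 it called 613, against 638 with all libraries.

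Long features were few but held about as many of the listed reads as all shorter ones. Their share was 50.4% ± 4.60 in wild-type (SD, n = 5, 44.4% to 56.4%) and 51.2% ± 3.98 in knock-out (SD, n = 6, 44.2% to 55.5%), and the groups overlapped. A pair of features on opposite strands of 1 locus at chr17:39842997-39848829 held a large part of it. They overlap Rn18s-rs5, a RefSeq sequence related to 18S ribosomal RNA. MSTRG.39223 (plus strand) had a mean of 308202 normalised counts and MSTRG.39224 (minus strand) 153914. MSTRG.39224 ran from 18768 to 331363 in wild-type and from 12906 to 733423 in knock-out, where 733423 was knock-out 2. Without the pair, the long share was 44.0% ± 4.68 in wild-type (SD, n = 5) and 44.6% ± 6.72 in knock-out (SD, n = 6).

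The typical long feature was well covered. The median mean over the 11 libraries was 349 normalised counts, against 6.09 for shorter features, and 1198 long features (77.8%) reached a mean of 100, against 4.21% of shorter ones. All 11 libraries had reads in 94.9% of long and 67.4% of shorter features. Per length the medians were closer: the median density was 37.9 normalised counts per kb (quartiles 8.45 and 66.6), against 26.2 for shorter features. The lowest listed means were 2.02 normalised counts for long and 2.00 for shorter features. With such a minimum, a very short feature cannot have a low density, whereas a long one can. The medians therefore do not show that long and shorter features are alike per length. Density was taken over end minus start, any introns included. The sources used here do not say whether only exons were counted. Density fell with length among long features. Its median was 42.4 per kb at 5000 to 10000 bp, 40.2 up to 20000 bp, 12.1 up to 50000 bp and 2.81 up to 100000 bp, then 5.86 in the 34 longest features. Across features, which are not independent replicates, Spearman's rank correlation of length and density was -0.27.

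**Figure D1:**
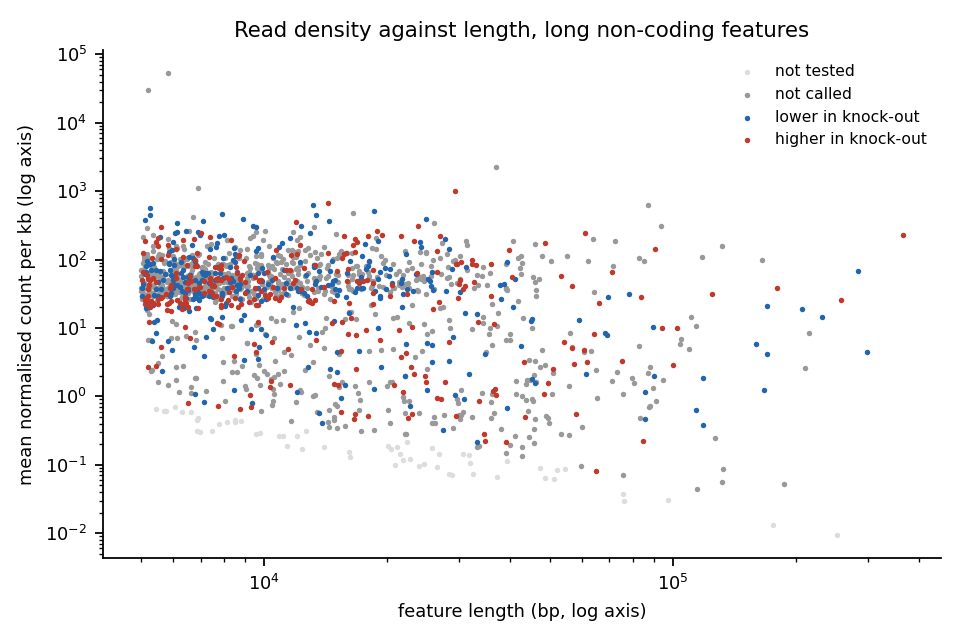
Read density of 1539 long features, as mean normalised count per kb over 11 libraries, against length, both on log axes; each point is 1 feature, coloured by its genotype call. Most points lie in a band near the median of 37.9 per kb, a sparse cloud extends below it at all lengths, and the 2 Rn18s-rs5 features stand above 10000 per kb.

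Features with different kinds of name differed in level. The 1469 features with assembled-transcript names had a median mean of 375 normalised counts. The 70 with Ensembl gene names had one of 3.84, and 42 of these 70 missed the minimum mean of 5 that the test required. In all, 58 long features were not tested. One of the longest features is of this kind: ENSMUSG00000100580.6, which is 4933436I20Rik on chromosome 1, spans 252095 bp and held 0 to 4.70 normalised counts in every library. Its mean of 2.36 normalised counts was under the minimum of 5. A limit of 3 reads is worth 2.28 to 4.11 normalised counts, depending on the library, so its values lie near that limit. Why they are low was not tested.

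After the ribosomal pair, the most abundant long features were intergenic or lay in poorly described non-coding genes of the GENCODE M21 annotation. MSTRG.66281 (chr5:14686781-14723649, minus strand, in Gm26954 and opposite to Pclo, which encodes the presynaptic scaffold protein piccolo) had the highest density after them, 2229 per kb. Its wild-type libraries held 79414 to 121375 normalised counts and its knock-out libraries 61229 to 95436, overlapping (log2 difference -0.34, SE 0.14, limma adjusted p = 0.0823, and 0.0332 without knock-out 1). MSTRG.36357, MSTRG.36341 and MSTRG.36348, on the minus strand of 1 interval of chromosome 16 between the GENCODE genes Robo2 and Lipi, had means of 54425, 29264 and 20937. RefSeq places a start of Robo2 on the same strand, inside MSTRG.36357 and 433 bp from its 5′ end. By RefSeq all 3 may thus lie in a Robo2 transcript, which was not tested. The log2 differences of these 3 features were -0.31, -0.31 and -0.31, with limma adjusted p of 0.124, 0.159 and 0.153, and their groups overlapped. Without wild-type 1 all 3 were called lower (limma adjusted p = 0.00517, 0.00513 and 0.00448). MSTRG.32017 in Gm20732 was another dense feature with no call (1128 per kb, 7214 to 8846 normalised counts in wild-type and 6451 to 8246 in knock-out).

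Other abundant features rose. MSTRG.18577 is the longest of all (chr12:5808193-6173771, plus strand, 365579 bp). It went from 40993 to 57874 in wild-type to 82400 to 142863 in knock-out (log2 difference 1.19, SE 0.15, limma adjusted p = 4.59e-07), which raised its share of the listed reads from 1.25% ± 0.188 (SD, n = 5) to 2.95% ± 0.902 (SD, n = 6). MSTRG.33137 (chr15:86446685-86476091, minus strand, in A930001M01Rik and opposite to Tbc1d22a, a Rab GTPase-activating protein gene) held 14246 to 19516 in wild-type and 30278 to 48193 in knock-out (log2 difference 1.35, SE 0.15, limma adjusted p = 3.34e-08). MSTRG.30539, whose promoter window is printed above, held 5899 to 7794 and 9175 to 13946 (log2 difference 0.72, SE 0.14, limma adjusted p = 0.000248). In MSTRG.18577, MSTRG.33137 and MSTRG.30539, every knock-out library lay above every wild-type library.

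Strand was nearly even, with 805 features on plus and 734 on minus (52.3% plus, against 49.9% of shorter features). By chromosome the balance varied: 59 plus and 25 minus on chromosome 9, 49 and 21 on chromosome 15, and 12 and 29 on chromosome 19. The features covered 31.0 Mb in all, against 17.7 Mb for the shorter ones, although neighbours on 1 strand can overlap. They were densest on chromosome 12, with 116 features or 10.1 per 10 Mb of the listed span, and sparsest on X, with 38 features or 2.32 per 10 Mb.

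By annotation (GENCODE M21), 624 long features (40.5%) were intergenic, 431 (28.0%) lay on the strand of a non-coding gene, 291 (18.9%) were antisense to a coding gene, 100 (6.50%) antisense to a non-coding gene and 93 (6.04%) on the strand of a coding gene. Shorter features were intergenic in 52.9% and antisense to a coding gene in 28.7% of cases. Among tested long features, 52.6% of those antisense to coding genes were called, against 17.2% of those on the strand of a coding gene, 41.5% in non-coding genes, 42.9% of intergenic ones and 46.9% of those antisense to non-coding genes. Shorter features had the same order at the ends, with 32.1% and 8.84%. The upstream side of 48 long features held a coding gene's RefSeq start on the opposite strand within 1000 bp, at a median gap of 301 bp. Of the 47 tested, 4 were higher and 10 lower in knock-out. This share was near the 28.1% called of all tested features and below the 43.1% of long ones. The sources used here do not say whether counting used the strand, so a feature and a gene opposite to it may share reads.

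Between genotypes, 638 of 1481 tested long features were called at a limma adjusted p below 0.05: 306 were higher and 332 lower in knock-out. Over all 21395 tested features, 28.1% were called, 15.6% higher and 12.6% lower, against 43.1% of long features, 20.7% higher and 22.4% lower. The libraries of the 2 genotypes did not overlap in 525 long features (35.4%), against 20.2% of all features. The median log2 difference was -0.13 for long features and -0.02 for all. Among calls, 231 rose and 192 fell at least 2-fold, 150 and 115 at least 4-fold, and 25 and 53 at least 16-fold. In bulk retina, fewer cells of a type and less RNA per cell cannot be told apart.

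Precision differed between long and shorter features. The median SE of a log2 difference was 0.18 for long and 0.33 for shorter features, and the median coefficient of variation in wild-type was 20.3% against 35.9%. At matched abundance this gap varied. It was 42.1% against 42.5% at a mean of 5 to 20, and 32.3% against 27.3% at 20 to 100. Further up it was 18.2% against 21.5% at 100 to 500, 17.8% against 23.9% at 500 to 2000 and 19.7% against 26.5% above. Calls of under 2-fold made up 33.7% of long calls and 18.96% of shorter calls. At matched abundance the gap in calls varied. At a mean of 100 to 500 normalised counts, 43.8% of 617 long and 43.5% of 1323 shorter features were called, and at 500 to 2000, 43.2% of 444 and 48% of 100. At a mean of 20 to 100 the shares were 46.5% of 159 and 36.4% of 5455. Above 2000 they were 49.6% of 137 and 3.23% of 31. The part of depth in the higher share of long calls was not tested. In the authors' deposited table, 306 long features were higher and 326 lower at an adjusted p below 0.05, where 19.4% of all listed features were called, and 616 of the 638 limma calls were shared, all in the same direction.

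**Figure D2:**
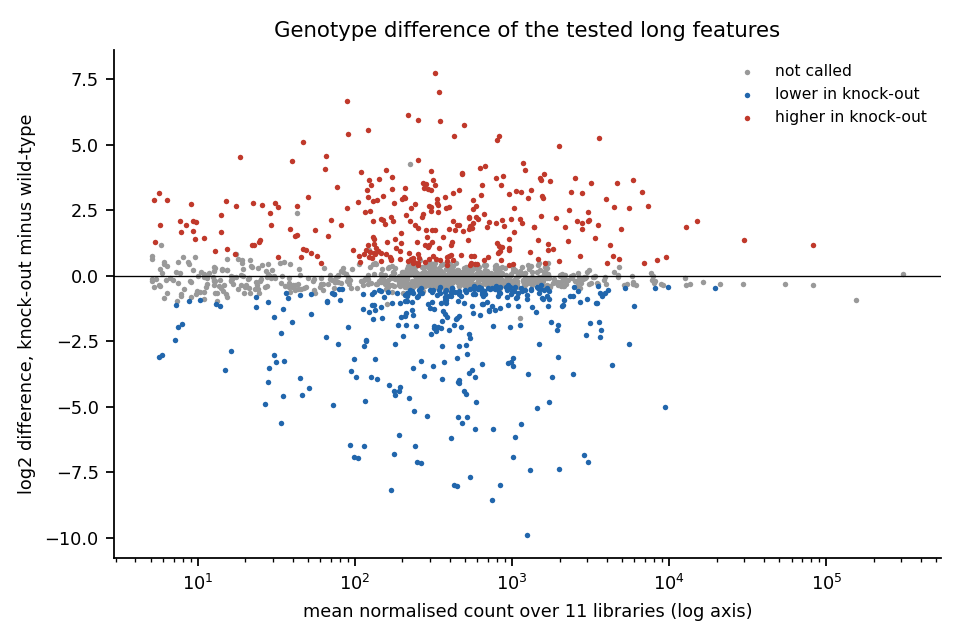
Log2 difference (knock-out minus wild-type) of the 1481 tested long features against their mean normalised count over 11 libraries on a log axis; each point is 1 feature, coloured by call. Calls of both directions occur from below 10 to above 10000 normalised counts, and the lowest point is MSTRG.46971 at -9.89.

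The largest falls left a few reads in the knock-out. MSTRG.46971 (chr2:5075108-5083538, minus strand, intergenic, with the nearest coding start 11057 bp away at Optn, the gene of the autophagy receptor optineurin) held 3747, 2849, 2580, 2176 and 2318 normalised counts in wild-type and 0 to 3.84 in knock-out (log2 difference -9.89, SE 0.30, limma adjusted p = 6.67e-19). MSTRG.23521 and MSTRG.23522, adjoining pieces in Gm11342 opposite to Cmah, an enzyme gene of sialic acid metabolism, held 1193 to 2245 and 833 to 1158 in wild-type and 1.52 to 5.86 and 0.758 to 6.06 in knock-out. MSTRG.45803 (chr19:37235124-37252862, plus strand, intergenic) was the steadiest of the group, at 2703, 2812, 2832, 2714 and 3078 in wild-type and 9.60 to 20.8 in knock-out (log2 difference -7.42, SE 0.19, limma adjusted p = 2.57e-20). Each of these fell in every knock-out library to under the lowest wild-type library.

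The other 4 of the 8 largest falls showed the same separation, which choosing the largest falls favours. MSTRG.91833 (in Gm20275, opposite to the myosin gene Myo9a) has as its nearest coding start that of Nr2e3, a nuclear receptor gene of rod photoreceptors, at 27908 bp. It held 926 to 1690 normalised counts in wild-type and 2.02 to 9.60 in knock-out. MSTRG.27653 (chr14:34658363-34664323, minus strand, opposite to Gm49024) went from 1384 to 2368 to 3.79 to 10.4. MSTRG.20705, whose nearest coding start is that of Dhrs7, a dehydrogenase gene, went from 834 to 987 to 1.04 to 5.05. MSTRG.23567 held 266 to 576 in wild-type and was at 0 in 4 of the 6 knock-out libraries, with 1 read in each of the other 2 (1.04 and 0.976 normalised counts). On the log2 scale with 1 added, the 8 differences ran from -9.89 to -7.42, and this scale understates changes that end near 0.

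**Figure D3:**
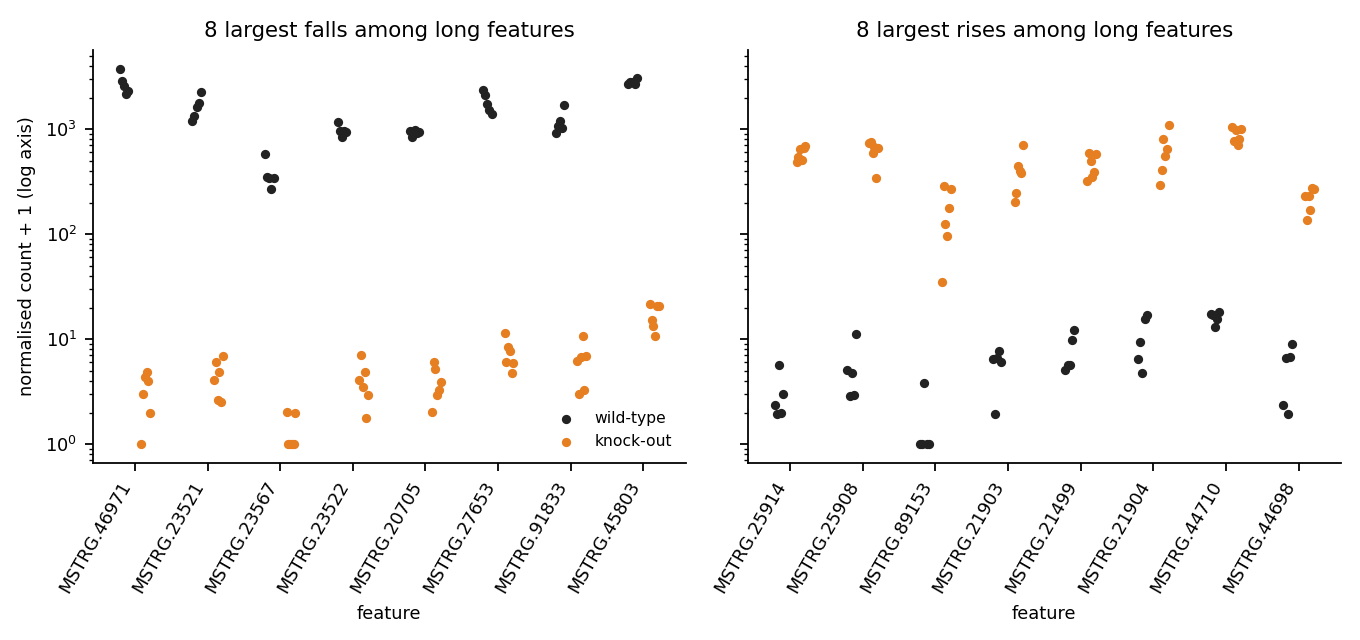
Normalised counts plus 1 on a log axis, 1 point per library, for the long features with the 8 largest falls (left) and the 8 largest rises (right); black points are the 5 wild-type and orange points the 6 knock-out libraries. The genotypes are separated in all 16 features, from MSTRG.46971 on the left to MSTRG.44698 on the right. Choosing the largest called differences favours such separation.

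Rises started from a few reads in wild-type. MSTRG.25914 and MSTRG.25908 are neighbours on the minus strand of chromosome 13 (97835280-97845656 and 97779286-97833490), the second of them in Gm41031. MSTRG.25914 held 0.941 to 4.64 normalised counts in wild-type and 488, 539, 651, 507, 659 and 683 in knock-out (log2 difference 7.74, SE 0.25, limma adjusted p = 1.48e-18). MSTRG.25908 held 1.88 to 10.1 and 341 to 750 (log2 difference 7.01, SE 0.28, limma adjusted p = 1.51e-16). MSTRG.89153, opposite to Def8, was at 0 in 4 wild-type libraries and at 2.78 in wild-type 3, and ranged widely in knock-out, from 34.3 to 286. MSTRG.21903, opposite to Catsperb, a sperm calcium channel subunit gene, and its neighbour MSTRG.21904 held at most 6.77 and 16.1 in wild-type, and 203 to 702 and 290 to 1091 in knock-out.

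The last 3 of the 8 largest rises lay on chromosomes 12 and 19. MSTRG.21499 (chr12:86903930-86913395, minus strand, intergenic, 19132 bp from the start of Irf2bpl) went from 4.11 to 11.1 to 322 to 598. MSTRG.44710 (chr19:8517441-8543422, minus strand, in Gm8189) and MSTRG.44698 (chr19:8451925-8457065, same strand) lie among Slc22a organic anion transporter genes. They held 12.1 to 17.1 and 0.928 to 8.07 normalised counts in wild-type and 699 to 1057 and 135 to 274 in knock-out. The 8 log2 differences ran from 5.55 to 7.74, and in none did the groups overlap, which choosing the largest rises favours.

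Among the 5 longest features, calls went both ways. MSTRG.83791 (chr7:128794147-129052991, plus strand, 258845 bp, in Gm32884) rose 9.02-fold. Mean normalised counts were 1246 ± 234 (SD, n = 5) in wild-type and 11243 ± 831 (SD, n = 6) in knock-out (log2 difference 3.19, SE 0.14, limma adjusted p = 9.66e-16). MSTRG.75635 (chr6:98412920-98697674, minus strand, 284755 bp) fell from 20476 to 25671 in wild-type to 14401 to 19515 in knock-out (log2 difference -0.47, SE 0.13, limma adjusted p = 0.00631). MSTRG.80547 (chr7:61012861-61311721, minus strand, 298861 bp) fell from 1428 to 1886 to 875 to 1411 (log2 difference -0.49, SE 0.15, limma adjusted p = 0.0145). In all 3 the genotypes did not overlap. In limma without the trend and robust options both falls lost their call (adjusted p = 0.0778 and 0.0889).

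Of 45 genes on a list of known long non-coding RNAs, 5 overlapped 12 long features, of which 1 rose, 2 fell and 9 were not called. This share was near the 28.1% called of all tested features and below the 43.1% of long ones, over few features. The rise and 1 of the falls were among 4 features at Otx2os1, transcribed opposite to the photoreceptor and bipolar transcription factor gene Otx2. MSTRG.27978 (chr14:48735582-48755083, plus strand) held 2595 to 3654 normalised counts in wild-type and 3943 to 7722 in knock-out (log2 difference 0.77, SE 0.16, limma adjusted p = 0.000467). The others on that strand, MSTRG.27984 and MSTRG.27985, were not called (log2 differences -0.08 and -0.43, limma adjusted p = 0.827 and 0.106), and MSTRG.27976 on the other strand fell (log2 difference -1.38, limma adjusted p = 1.95e-06). The imprinted RNAs showed smaller differences than the called MSTRG.27978 and MSTRG.27976. On the log2 scale they were -0.42 for MSTRG.22194 of Meg3 (limma adjusted p = 0.0932) and 0.03 for MSTRG.37440 of Airn (0.907). They were -0.14 for MSTRG.84395 of Kcnq1ot1 (limma adjusted p = 0.608) and -0.33 for MSTRG.80417 of Snhg14 (0.1004). In MSTRG.80417 the genotypes did not overlap. Meg3 passed without knock-out 2 (limma adjusted p = 0.04998), and MSTRG.80417 passed with DESeq2 (adjusted p = 0.0258) and with a minimum mean of 20 (limma adjusted p = 0.0435). A second Snhg14 feature, MSTRG.80426, fell (log2 difference -0.50, limma adjusted p = 0.0376). The list's median log2 difference was -0.26, against -0.13 for all long features.

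Lists of retinal cell types touched long features at few genes. Of 20 photoreceptor transcription factor genes, 5 overlapped 6 long features, all antisense, of which 3 rose and 3 fell. Of all tested features 28.1% were called, and of long features antisense to a coding gene 52.6%. The 6 are few, and 2 of them lie at 1 gene. MSTRG.92251, opposite to the nuclear receptor gene Rora, held 24.2 to 57.6 normalised counts in wild-type and 345 to 569 in knock-out (log2 difference 3.52, SE 0.20, limma adjusted p = 1.47e-13). MSTRG.45149, opposite to the related Rorb, which acts in rod differentiation, fell from 22.2 to 60.3 in wild-type to 0.976 to 5.05 in knock-out (log2 difference -2.88, SE 0.35, limma adjusted p = 1.77e-07). The other 4, named after their values were seen, were MSTRG.8735 and MSTRG.8736 opposite to Prdm1, a repressor of bipolar fate (log2 differences 2.42 and 1.96), and MSTRG.65363 and MSTRG.77987 opposite to Casz1 and Crx (-1.04 and -1.37).

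Among the listed rod genes, Sag, the rod arrestin gene, had a sparse antisense long feature. MSTRG.3337 held 4.03 to 39.8 normalised counts in wild-type and 6.64 to 11.4 in knock-out and was not called (log2 difference -0.95, limma adjusted p = 0.0696). It was called lower without wild-type 5 (limma adjusted p = 0.00160), with 5 added before the log (limma adjusted p = 0.0346), and with edgeR and DESeq2 (adjusted p = 0.00938 and 0.00984). Of 17 glial and stress response genes, Cebpd had 1: MSTRG.34675 on its own strand held 160 to 296 normalised counts in wild-type and 554 to 1202 in knock-out (log2 difference 1.84, SE 0.20, limma adjusted p = 1.95e-08). Exons on that strand, where Cebpd is the only gene, make up 36.5% of MSTRG.34675. Its reads may thus include the coding transcript, which was not tested. No long feature overlapped any listed gene of cones, bipolar, amacrine, ganglion or horizontal cells, Müller glia, pigment epithelium, vessels, microglia, lens, erythrocytes or microRNA hosts, so none of those marker lists had a value at this length.

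Long features came in runs. When features of 1 strand with gaps of at most 100000 bp were joined, 674 of the 1539 fell into 204 runs of at least 2, and 312 into 45 runs of at least 4, with up to 20 in 1 run. Pieces of a run may belong to 1 transcript and are not independent. Within the 45 longer runs the median range of log2 differences was 0.29. Of the 76 runs with at least 2 calls, 38 held only rises, 37 only falls and 1 both. When features up to 1000000 bp apart were joined, an alternative added after seeing the data, 24 of 102 such runs held both. The runs named next were chosen after their values were seen.

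Summed over the features of a run, 15 of the 45 longer runs did not overlap between genotypes, 8 of them higher and 7 lower in knock-out. Among single features, the groups did not overlap in 35.4% of long and 20.2% of all tested ones, so the share of runs was near that of long features. The strongest rise was in 4 features at chr15:86590911-86794915 (plus strand, near Tbc1d22a), with sums of 802 to 1145 normalised counts in wild-type and 7365 to 9361 in knock-out, a ratio of means of 9.56. The members' own log2 differences lay between 3.22 and 3.28. Runs of 5 features at chr12:68385907-68603778 (minus strand) and chr18:55539791-55758186 (plus strand) rose in all 5 features each, from means of 570 ± 83.2 and 1026 ± 110.4 (SD, n = 5) to 4715 ± 846 and 7908 ± 1305 (SD, n = 6). The largest by reads was the run of 19 features at chr12:5777825-6659666, with Klhl29 as its nearest coding gene, with 18 rises and sums of 58530 to 87795 in wild-type and 139159 to 253650 in knock-out. It alone held 18 of the 45 rises on chromosome 12, and without it 288 long features rose in all.

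Falls by run were uniform in some places and uneven in others. At Vwc2l, a gene of a secreted neural protein, 4 minus-strand features at chr1:70796580-70918375, 3 of them antisense to it, summed to 4075 to 6556 in wild-type and 352 to 643 in knock-out, a ratio of 10.3, with members' log2 differences of -3.60 to -3.27. On chromosome 7, 4 features at and beside Lrrk1 (66182633-66291579, plus strand) went from 1404 to 1769 to 390 to 445, with members at -3.65 to -1.47, and 8 features at 40130579-40488142 on the same strand, all 8 called, from 9278 to 10883 to 5604 to 6232. On X, 4 features at 14680327-14971526 (plus strand) went from 8679 to 11586 to 3926 to 5261. Near Thrb, the gene of the thyroid hormone receptor that acts in cone opsin choice, 4 minus-strand features at chr14:17482506-17594248 went from 3617 to 5140 to 1989 to 2980. In each of these 5 runs every member fell and the sums did not overlap. At Slc35f4, 4 plus-strand features at chr14:49283233-49401196 summed to 608 to 1243 in wild-type and 198 to 440 in knock-out, but 3 of the 4 were called, at log2 differences of -1.90 to -0.45.

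**Figure D4:**
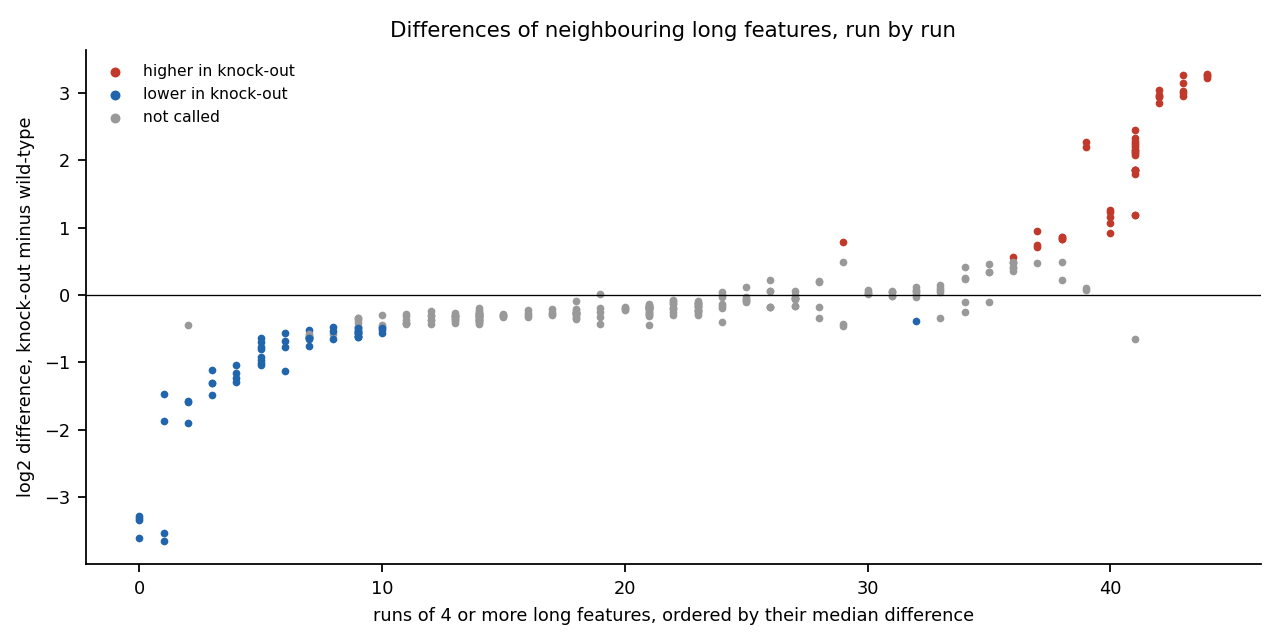
Log2 difference (knock-out minus wild-type) of each tested long feature in the 45 runs of at least 4, with runs ordered along the horizontal axis by their median; each point is 1 feature, coloured by call. Runs at both ends mostly hold points of 1 colour, over ranges that differ between runs, and the run with 18 rises has 1 uncalled member below 0, at -0.65.

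Other long runs had few or no calls, although every member of the 3 given here lay below 0. The run with the most members, 20 features at chr3:17060589-17693393 (minus strand), had 1 call and log2 differences of -0.44 to -0.19, with sums of 18984 to 31827 in wild-type and 16846 to 26922 in knock-out. The 19 features at chr10:8933534-9597098 (minus strand) had 0 calls and differences of -0.45 to -0.14, with sums of 22917 to 46857 and 22998 to 41714. The 15 features at chr5:51607448-52115657 between Ppargc1a and Dhx15 also had 0, at -0.29 to -0.08. By limma at an unadjusted p below 0.05, 769 of the 1481 long features passed, against 7730 of all 21395. Within these runs the libraries kept an order that was not the genotype's. Of the 5 wild-type libraries, wild-type 1 had the lowest sum in 35 of the 45 runs and wild-type 5 the highest in 34, and of the 6 knock-out libraries, knock-out 2 was lowest in 32 and knock-out 5 highest in 31. In the run of 17 features at chr11:37574147-37886624 (minus strand), with 11 falls, wild-type 1 held 7084 and the other wild-type libraries 11494 to 14764, against 5788 to 10394 in knock-out, so that the groups overlapped through wild-type 1 only. What part library differences had in the uncalled runs was not tested.

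On opposite strands, 21 pairs of long features overlapped. In 9 of them both were called, 7 in the same direction and 2 in opposite directions. One of the 2 was the Otx2os1 pair above. The other was MSTRG.54988 (log2 difference 0.48, limma adjusted p = 0.0171) and MSTRG.54978 (-0.38, 0.0369) on chromosome 3, whose genotype ranges overlapped. A pair in which both fell, MSTRG.40687 and MSTRG.40686 near Zfp36l2, an mRNA decay factor gene, held 819 to 1872 and 691 to 1099.9 normalised counts in wild-type and 11.4 to 33.2 and 4.16 to 16.2 in knock-out.

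The authors' table gives the mRNAs listed as down or up in each feature's chromosomal domain. The sources used here do not say how lists and domains were made, nor against which genotype down and up are read; they are taken here as lower and higher in knock-out. In domains with only lower mRNAs, 72 of 185 tested long features fell and 17 rose. In domains with only higher mRNAs, 156 of 361 rose and 54 fell, and without the chromosome 12 run of 19 it was 138 of 342. In domains with both, 33 of 148 rose and 42 fell, and where no mRNA was listed, 100 of 787 rose and 164 fell. Shorter features leaned the same way in the first 2 kinds of domain: 24.8% fell and 9.08% rose with lower mRNAs, and 28.8% rose and 7.43% fell with higher ones. In domains with both they leaned the other way from long features, with 16.4% rising and 13.8% falling (median log2 difference 0.04, against -0.18 for long features), a difference that was not tested. Neighbouring features share a domain, so these are counts over places as well as features: the 72 falls came from 63 runs and the 156 rises from 114.

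**Figure D5:**
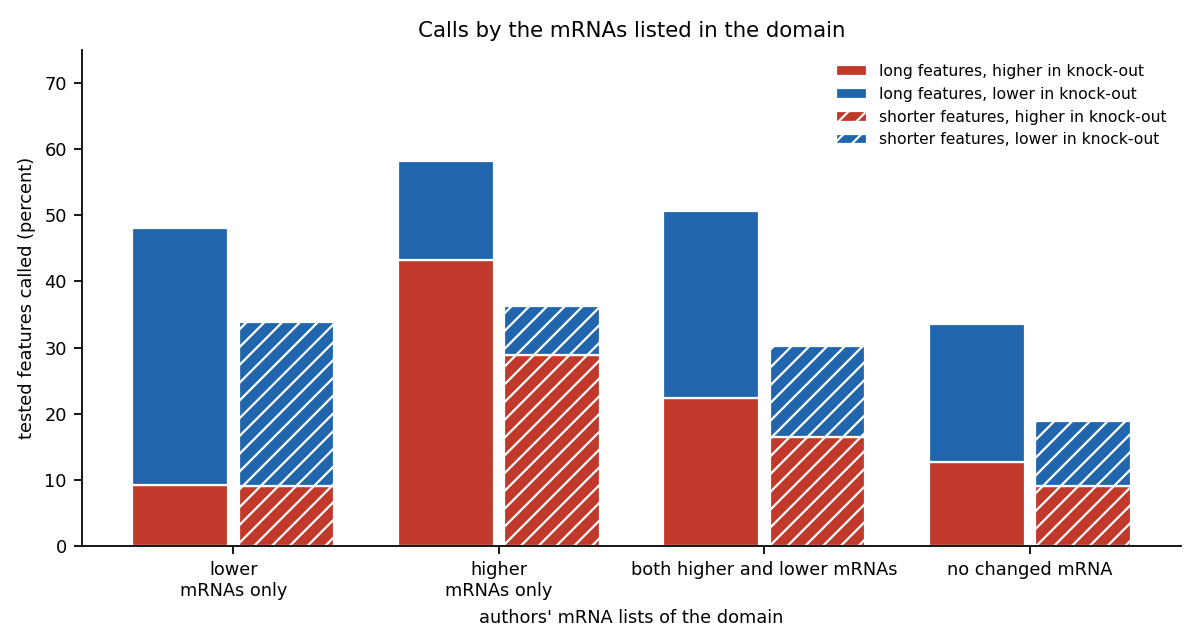
Percent of tested features called higher (red) or lower (blue) in knock-out, stacked, by the mRNAs the authors list in the domain; plain bars are long features and hatched bars shorter ones. Among long features the blue part is largest in domains with lower mRNAs only (38.9%) and the red part in those with higher mRNAs only (43.2%).

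The same was counted for the gene opposite or nearest to a feature. Where the coding gene on the opposite strand was itself listed as lower, 23 of 40 long features fell and 1 rose, as with MSTRG.23521 at Cmah and MSTRG.45149 at Rorb. Where that gene was listed as higher, 24 of 46 rose and 8 fell. For features that overlapped no gene, 16 of 36 fell and 2 rose when the nearest coding start belonged to a gene listed as lower. MSTRG.44698, nearest to Slc22a30, was among these rises. When the nearest gene was listed as higher, 47 of 62 rose and 2 fell (33 of 47 and 2 without the chromosome 12 run). Among all tested long features, 22.4% fell and 20.7% rose. Of the 289 tested long features placed as antisense to a coding gene, 95 fell and 57 rose, whatever the gene's listing. Counted by run, with opposite genes, falls came from 20 of 30 runs and rises from 22 of 41. With nearest starts it was 14 of 23 and 26 of 38. Shorter features around a long one seldom had the opposite call. Within 10000 bp on the same strand of the 306 long features that rose, 382 of 518 tested shorter features rose and 2 fell. Around the 332 that fell, 241 of 518 fell and 12 rose. Against the 15.6% and 12.6% of all tested features called higher and lower, these shares were 73.7% and 46.5%. Such neighbours may be pieces of the same transcript as the long feature, so they are not independent of it.

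By chromosome, 70.0% of the 40 tested long features on chromosome 19 and 66.2% of the 68 on chromosome 15 were called, the highest shares. The lowest was 20.4% of the 49 on chromosome 16, against 43.1% of all tested long features and 28.1% of all tested features. Runs weigh on these shares: on chromosome 16, runs of 10 and 6 features had 0 calls, and on chromosome 15 a run of 9 had 7. Chromosome 12 had 45 rises and 16 falls among 113, and chromosome 8 had 11 rises and 29 falls among 80. Without its largest run, chromosome 12 had 27 rises and 16 falls.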

How the data were processed

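Per the labels, poly(A)-depleted RNA of retina was sequenced in 5 wild-type and 6 Nrl knock-out libraries. The authors deposited 1 table of DESeq2-normalised counts per feature and library (a signal scaled by library, mm10), per the file headers, with 36180 lines for 36097 features. The authors also deposited their own comparison: a log2 fold change with its error, a Wald score, a p-value and an adjusted p-value. Tools in the submitters' processing notes, listed without roles, are TopHat2 2.0.10, Cufflinks 2.2.1 and Cuffdiff. Not given in the sources used here are the assembler, the counting tool, its use of strand and the origin of the domain and mRNA columns.

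Starts were written counting from 1. Every value was a whole multiple of 1 read's worth in its library (100% of values within 0.001), so whole reads could be recovered. Libraries held 3238184 to 4876429 reads in listed features. The limit for a feature at 0 is 3 reads, worth 2.28 to 4.11 normalised counts, for counting error only.

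The main test was limma 3.58.1 (R 4.3.3; lmFit, eBayes with trend and robust) on log2(normalised count + 1), two-sided, Benjamini-Hochberg adjusted over 21395 features with a mean of at least 5; a call is an adjusted p below 0.05. It was tested on simulated data of these 21395 features (dispersion 0.05, 200 changed): 5 of 81 changes of 1.5-fold, 22 of 57 of 2-fold and 53 of 62 of 4-fold were recovered, with 5 false calls. Alternatives were other pseudocounts, filters, scalings and length limits, a replicate block, each library left out, and edgeR 4.0.16 and DESeq2 1.42.0 on recovered reads. Members and gene lists were chosen with earlier results of these data known. Named features are the 8 most abundant, 6 densest and 5 longest, the 8 largest called rises and falls, the 5 most abundant not called, for each known non-coding gene the most abundant member, for other lists up to 2 called and 1 not called, and the 3 features on each side of the length limit. Other features named were chosen after their values were seen. No genome was used here, so windows at each feature's own 5′ end were replaced by RefSeq promoter windows. One feature at a listed gene is not reported here.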

Additional observations from a re-analysis of the deposited data

Results flagged for a closer look

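Among 186 groups of library values examined, 15 had 1 library set apart from the rest by more than Dixon's 95% limit, or 8.06%, where chance flags about 1 in 20 groups. Of these 15, 9 were wild-type 1 and 3 were knock-out 2, the libraries that also stood apart in reads.

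Wild-type 1 was the high library at MSTRG.80547 (1886 normalised counts, against 1428 to 1510 in the other wild-type libraries), MSTRG.23567 (576, against 266 to 345) and MSTRG.45149 (60.3, against 22.2 to 29.0). It was also the high one in the summed runs at chr13:74437959-74617719 (3102, against 1927 to 2135) and chr15:86590911-86794915 (1145, against 802 to 872). It was the low one in the summed runs at chr3:17060589-17693393 (18984, against 28707 to 31827), chr3:13475836-13647585 (24183, against 37801 to 42234), chr14:40055368-40244559 (2089, against 3870 to 4135) and chr2:38865959-38910932 (1310, against 2246 to 2450).

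Knock-out 2 held 733423 normalised counts of MSTRG.39224, against 12906 to 86714 in the other knock-out libraries, and 23.2% of its listed reads in the Rn18s-rs5 pair. It held 14142 of MSTRG.36348, against 18381 to 20722. Wild-type 5 was high at MSTRG.25908 (10.1, against 1.88 to 4.11) and knock-out 5 at MSTRG.3337 (11.4, against 6.64 to 7.81). Wild-type 3 was the only wild-type library above 0 at MSTRG.89153 (2.78). No explanation was tested for these libraries.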

How the results depend on the processing

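Under all pseudocounts, scalings and tools run, counts of long calls stayed within 1.5 times of the reported 306 and 332. edgeR gave 306 and 333, DESeq2 315 and 346, and limma without trend and robust 277 and 249. Leaving out 1 library gave 286 to 322 rises and 284 to 399 falls among long features (most without wild-type 1), 3084 to 3537 and 2325 to 2732 among all features, a long median log2 difference of -0.14 to -0.10, and long shares of 49.0% to 51.9% in wild-type and 50.4% to 52.6% in knock-out. A length limit of 3000 bp gave 472 rises and 509 falls with shares of 55.2% and 55.6%, and 10000 bp gave 161 and 159 with 30.2% and 32.4%, since the limit sets which features enter. A minimum mean of 20 left 1722 rises and 1628 falls over all features, because fewer were tested. Without the 10 most abundant features the shares were 57.9% and 59.7%, and without the Rn18s-rs5 pair, an alternative added after seeing the data, 44.0% and 44.6%.

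The replicate numbers shared by the 2 genotypes were not taken to pair the libraries, since not every same-numbered pair correlated above 0.1: the 5 correlations of deviations were all positive, at 0.294, 0.00135, 0.123, 0.0512 and 0.273, and 1 of 5 wild-type libraries correlated best with its own number. With the replicate number as a block, 344 long features rose and 438 fell (782 calls, 637 of them among the 638), and 8 named features without a call passed: MSTRG.36357, MSTRG.36341, MSTRG.36348, MSTRG.66281, MSTRG.80417 and the 3 shortest members (MSTRG.33197, MSTRG.19168 and MSTRG.91149). The uncalled features that changed direction were MSTRG.39224, to 0.012 with edgeR and 0.045 with DESeq2, and MSTRG.37440 of Airn, whose values with 1 library left out ran from -0.028 to 0.10004; the cause was not tested. In the simulated data, where 200 of 21395 features changed, 5 of 81 changes of 1.5-fold were recovered, and 5 of the 81 were long features. In the real data 28.1% of tested features were called, and 215 long calls were under 2-fold. The simulation therefore does not give the recovery of small changes among long features.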

Other observations

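MSTRG.72964, MSTRG.1428 and MSTRG.56346 had log2 differences beyond 1.5 in size without a call, and were looked at for that reason after their values were seen. MSTRG.72964 (chr6:31792013-31799416, minus strand) was nearly on or off by library in both genotypes: it held 239 and 69.6 normalised counts in wild-type 1 and wild-type 5, 0, 0 and 0.967 in the other wild-type libraries, 0.960 in knock-out 4 and 118 to 649 in the other knock-out libraries (log2 difference 4.26, SE 2.06, limma adjusted p = 0.176). MSTRG.1428 (chr1:45728161-45734089, minus strand, intergenic) held 337 in knock-out 5 and 33.3 in wild-type 5, and was at 0 in 3 wild-type and 2 knock-out libraries. MSTRG.56346, opposite to Mbnl1, a splicing regulator gene, held 1135 to 1885 in wild-type, 1666 in knock-out 5 and 148 to 802 in the other knock-out libraries.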
